A study of Abies pinsapo with 24 samples.

Results

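The dehydrin features Gene_5437, Gene_18854 and Gene_3530 of the Spanish fir (Abies pinsapo) transcriptome were followed across needles and roots, 2 sites and 2 seasons. They are 3 of the 51046 features in the count table and 3 of its 10 features with a dehydrin domain (PF00257). The members were chosen by their high read counts in autumn and their lower counts in spring, so their levels and season values describe them and carry no test. Site and the difference between sites in the season change were not used in the choice and were tested. Organ was tested too, but its comparisons use the autumn and spring levels on which the choice rested. They are not independent of it. RNA came from wild adult trees, aged 30 to 50 years, of the Sierra de las Nieves in southern Spain, with no experimental treatment. At Yunquera, the lower forest edge (1100 to 1200 m), the trees are numbered 1 to 3 here, and at Ronda, the upper edge (1700 to 1800 m), 4 to 6. Autumn was September 2022 and spring May 2023, which gave 8 groups of 3 libraries. Season therefore cannot be told apart from the year of harvest, nor organ from the RNA extraction method, because a column kit served for the root RNA and a different protocol for the needle RNA. The labels give each number once per organ and season, and that the same number means the same tree is taken from them. They mention directional and non-directional libraries but not which sample received which.

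Dehydrins are very hydrophilic, largely unfolded proteins of the late embryogenesis abundant (LEA) class. In plants they build up in ripening seeds and in tissues that lose water through drought, salt or frost, and they bind to membranes and other proteins as water becomes scarce. In Arabidopsis several dehydrin genes are switched on through abscisic acid (ABA) and its bZIP transcription factors, and others through the cold-induced CBF/DREB factors. In evergreen conifers dehydrins are known for their part in seasonal frost and drought hardiness.

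Each member is the single feature on its reference sequence. In the count table they are listed as Gene_5437_ap_4165_g_5437, Gene_18854_ap_12747_g_18854 and Gene_3530_ap_2854_g_3530. Gene_5437 covers bases 1 to 680 of ap_4165 and Gene_18854 bases 1 to 678 of ap_12747, both on the plus strand, and each holds a reading frame that is incomplete at the 5′ end, of 145 and 134 residues. Gene_3530 covers bases 1 to 945 of ap_2854, plus strand, with a complete frame of 118 residues. None of the 10 dehydrin features has a named best hit, so no Arabidopsis counterpart can be given for any of them. Reads from near-identical copies could be divided between such features, and their separate values are uncertain to that extent.

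Total counts ran from 13355301 to 27427263 per library, and 22390 features had no count anywhere. A list of 123 chloroplast features (chlorophyll-binding and photosystem proteins and the small Rubisco subunit) took 3.17 to 4.70% of the reads in autumn needles and 4.95 to 6.72% in spring needles, which did not overlap, and 0.0916 to 0.171% and 0.0657 to 0.121% in autumn and spring roots. In needles 8 of the 67 tested rose in spring and none fell (15 by DESeq2, 5 with the tree as a block, 0 with all 24 libraries as labelled, 4 to 16 without 1 library at a time). In roots 5 of 38 fell and none rose (12 by DESeq2, 0 as labelled, 1 to 5 without 1 library at a time). Over all features tested by edgeR, 8.79% rose and 6.49% fell in spring needles, and 2.41% rose and 3.13% fell in roots. A pair of spring libraries from Ronda went against their labels: the library labelled needles of tree 6 had 0.0473% (95% Wilson interval 0.0462 to 0.0483), and the one labelled roots of tree 5 had 3.94% (3.93 to 3.95). Both were set aside, so that spring at Ronda was left with 2 libraries in each organ, and each call of a member that was lost with them is given both ways. The 14 root marker features did not mark the roots. In autumn they overlapped between organs (0.0237 to 0.0725% in needles, 0.0233 to 0.0431% in roots). In spring they were higher in needles without overlap (0.0295 to 0.0867% in needles, 0.0243 to 0.0280% in roots). Cyclins and alpha-expansins, 49 markers of growing tissue, took 0.0151 to 0.0295% of the reads in autumn needles and 0.0179 to 0.0633% in spring needles, where 12 of the 23 tested rose and none fell by edgeR. With the tree as a block 2 rose, by DESeq2 13 rose and 1 fell, as labelled 10 of 21 rose, and 7 rose without the spring needles of tree 2 or of tree 4. In roots they took 0.0209 to 0.0365% in autumn and 0.0238 to 0.0427% in spring, and 1 of the 16 tested rose (0 with the block, 7 by DESeq2, 5 of 15 as labelled, 0 to 3 without 1 library at a time). Features with a fungal best hit took 0.586 to 0.947% in needles and 0.626 to 1.95% in roots. The part of leaf tissue, growth or fungi in the dehydrin values was not tested. In these bulk samples fewer cells that express a gene and less RNA per cell cannot be told apart.

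Gene_5437 was the member with the highest levels and was lower in spring in both organs. Levels are normalised read counts (CPM, counts scaled to a common library size). In autumn needles it had 2473, 1479.9 and 2432 CPM in trees 1, 2 and 3 of Yunquera and 2918, 722 and 1551 CPM in trees 4, 5 and 6 of Ronda. In spring needles it had 107, 163 and 112 CPM in trees 1 to 3 and 45.2 and 22.9 CPM in trees 4 and 5. Every autumn needle library was thus above every spring one, and in spring both Ronda libraries were below all of Yunquera. In autumn roots the feature had 16521, 4223 and 12860 CPM in trees 1 to 3 and 2920.3, 752 and 4335 CPM in trees 4 to 6. In spring roots it had 363, 369.7 and 569.9 CPM in trees 1 to 3 and 120.4 and 71.1 CPM in trees 4 and 6. The seasons did not overlap in roots either, and tree 5 was the lowest autumn library in both organs. The set-aside spring libraries had 45.9 CPM (labelled needles) and 17.1 CPM (labelled roots).

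Gene_18854 changed least in needles. Its autumn needle libraries had 682, 499 and 590.2 CPM at Yunquera (trees 1 to 3) and 162, 181 and 198 CPM at Ronda (trees 4 to 6). Its spring needle libraries had 188, 127 and 106 CPM at Yunquera and 36.7 and 27.3 CPM at Ronda. The seasons did not overlap within a site, but the highest spring library of Yunquera stood above the lowest autumn libraries of Ronda. Autumn roots had 1355, 484 and 1587 CPM in trees 1 to 3 and 523, 61.5 and 411 CPM in trees 4 to 6. Spring roots had 38.4, 45.6 and 170.5 CPM in trees 1 to 3 and 8.72 and 12.2 CPM in trees 4 and 6. Tree 3 stood above the other spring roots and tree 5 below the other autumn roots. The set-aside libraries had 18.8 CPM (labelled needles) and 27.98 CPM (labelled roots).

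Gene_3530 was abundant in autumn needles and nearly absent from spring needles. Its autumn needle libraries had 614, 312 and 758 CPM in trees 1 to 3 and 408, 238 and 225 CPM in trees 4 to 6. The 5 spring needle libraries had 0.499, 1.51 and 0.763 CPM in trees 1 to 3 and 0.808 and 0.959 CPM in trees 4 and 5, which are 9, 31, 14, 16 and 16 reads. All of them lay far below the lowest autumn library. In autumn roots it had 1389.7, 167 and 1747 CPM in trees 1 to 3 and 55.6, 56.9 and 137 CPM in trees 4 to 6. In spring roots it had 182, 56.2 and 38.4 CPM in trees 1 to 3 and 36.3 and 13.1 CPM in trees 4 and 6. The root seasons overlapped: the spring library of tree 1 was above 4 of the 6 autumn libraries. The set-aside library labelled needles had 74.7 CPM (1490 reads), within the range of spring roots, and the one labelled roots had 0 reads, which allows up to 0.145 CPM (3 counts; counting error only).

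**Figure D1:**
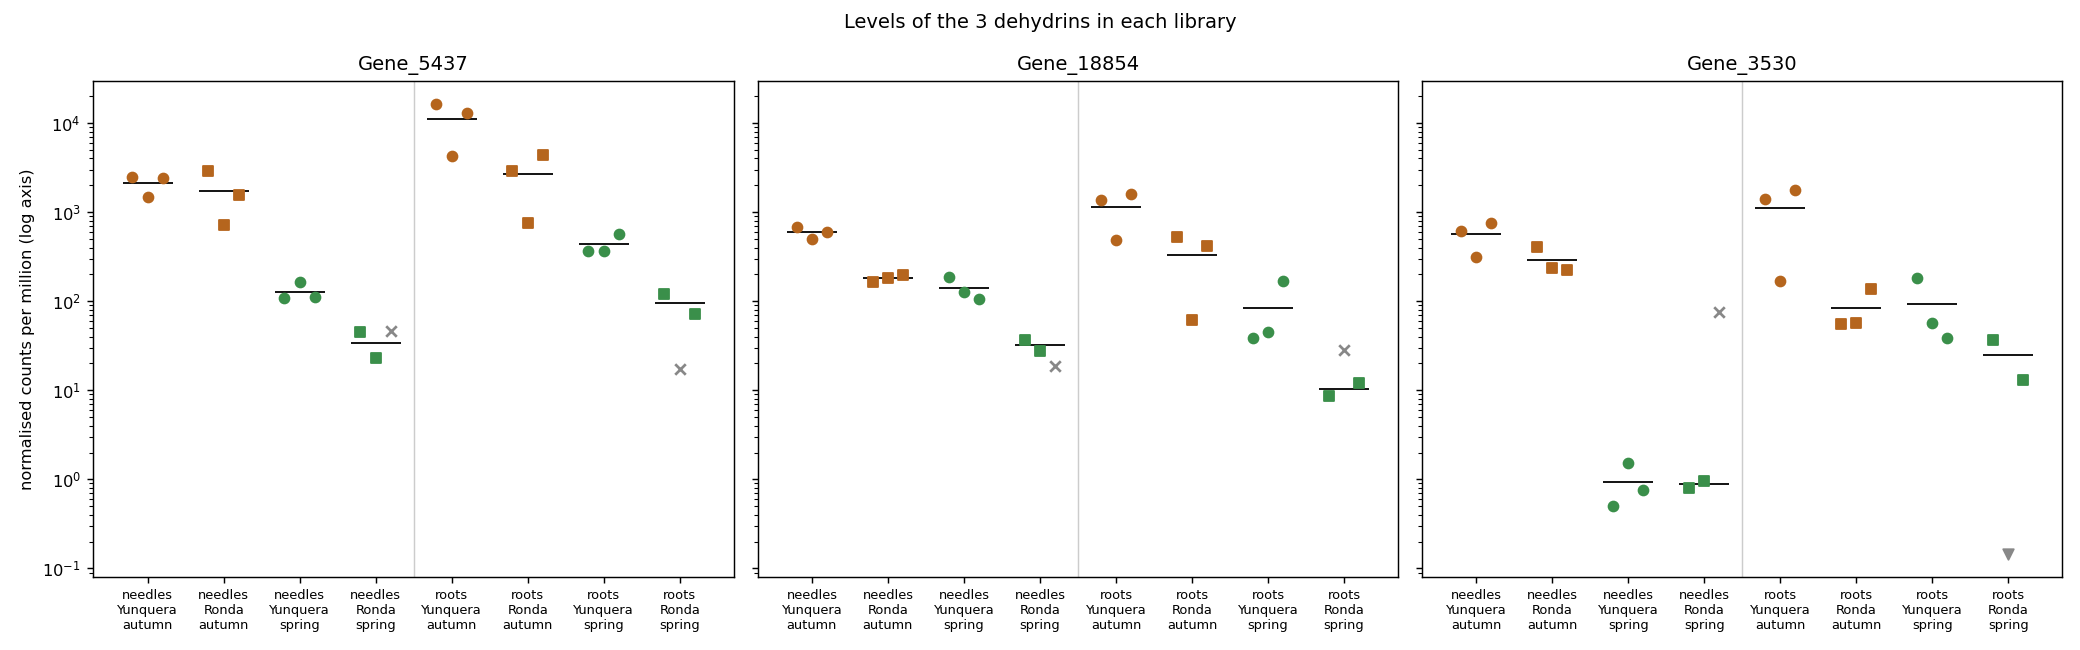
Level of the 3 members in every library, in normalised CPM on a log axis, by organ, site and season; circles are Yunquera and squares Ronda, brown autumn and green spring, the black bar is the group mean, points run by tree number and grey symbols are the set-aside libraries (a triangle is a count of 0 drawn at 3 counts). Spring points lie below autumn points of the same organ and site in every panel except Gene_3530 in Yunquera roots, and Gene_3530 in spring needles lies at 0.499 to 1.51 CPM.

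Over both sites, Gene_5437 averaged 1929 ± 816 CPM in autumn needles (SD, n = 6) and 90.1 ± 56.3 CPM in spring needles (n = 5), and 6935 ± 6252 and 299 ± 204 CPM in autumn and spring roots. Its log2 fold change (spring minus autumn, the mean of the changes at both sites, ± SE) was -4.88 ± 0.46 in needles and -4.78 ± 0.61 in roots. Gene_18854 averaged 385 ± 232 and 97.0 ± 66.7 CPM in needles and 737 ± 596 and 55.1 ± 66.5 CPM in roots, with log2 fold changes of -2.29 ± 0.18 and -4.40 ± 0.72. Gene_3530 averaged 426 ± 217 and 0.908 ± 0.376 CPM in needles and 592 ± 766 and 65.1 ± 66.9 CPM in roots, with log2 fold changes of -8.80 ± 0.49 and -2.70 ± 0.69. With all 24 libraries as labelled the needle value of Gene_3530 was -6.36 ± 1.15, and -3.50 ± 1.41 in place of -8.38 ± 0.70 at Ronda alone. As background, 15.3% of the 20560 features tested in needles passed the adjusted threshold for season (8.79% higher and 6.49% lower in spring), and 5.54% of the 18538 tested in roots (2.41% higher and 3.13% lower). Seasons that did not overlap, with spring lower, were found for 4.05% of features in needles and 2.97% in roots. Nothing is read from the members against these shares, since season chose them.

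The size of the season difference varied among trees. Every one of the 5 trees with both seasons in an organ was lower in spring for every member. Autumn over spring ran from 9.05-fold to 64.6-fold in needles and from 11.4-fold to 60.9-fold in roots for Gene_5437. For Gene_18854 it ran from 3.62-fold to 6.63-fold in needles, the narrowest span of the 6, and from 9.31-fold to 60.0-fold in roots. For Gene_3530 it ran from 207-fold to 1230-fold in needles and from 1.53-fold to 45.5-fold in roots. Trees 1 to 4 had all 4 libraries, and in each of them Gene_3530 differed more between seasons in needles than in roots (needles minus roots, log2 -7.33, -6.12, -4.45 and -8.37). Gene_18854 went the other way in each (3.29, 1.43, 0.74 and 3.76), and Gene_5437 had no common direction (0.98, 0.34, 0.05 and -1.41). The difference between organs in the season change was not tested.

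The order of the 8 groups was led by autumn roots of Yunquera for each member, at 11201 ± 6314 CPM for Gene_5437, 1142 ± 582 CPM for Gene_18854 and 1101 ± 828.7 CPM for Gene_3530 (SD, n = 3). For Gene_5437 the other autumn groups followed, with neighbours that overlapped, then spring roots of Yunquera (434 ± 118), spring needles of Yunquera (127 ± 31.2), spring roots of Ronda (95.8 ± 34.8; n = 2) and spring needles of Ronda (34.1 ± 15.7; n = 2). Of these, spring needles of Yunquera and spring roots of Ronda overlapped and the other neighbours did not. For Gene_18854 the first 6 groups each overlapped the next, down to spring roots of Yunquera (84.8 ± 74.3), and spring needles (32.0 ± 6.68) and spring roots of Ronda (10.5 ± 2.45) stood apart at the bottom. Gene_3530 had spring roots of Yunquera (92.0 ± 78.0) above autumn roots of Ronda (83.0 ± 46.4), which overlapped, and both spring needle groups last, at 0.925 ± 0.525 and 0.883 ± 0.107 CPM, which overlapped too.

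**Figure D2:**
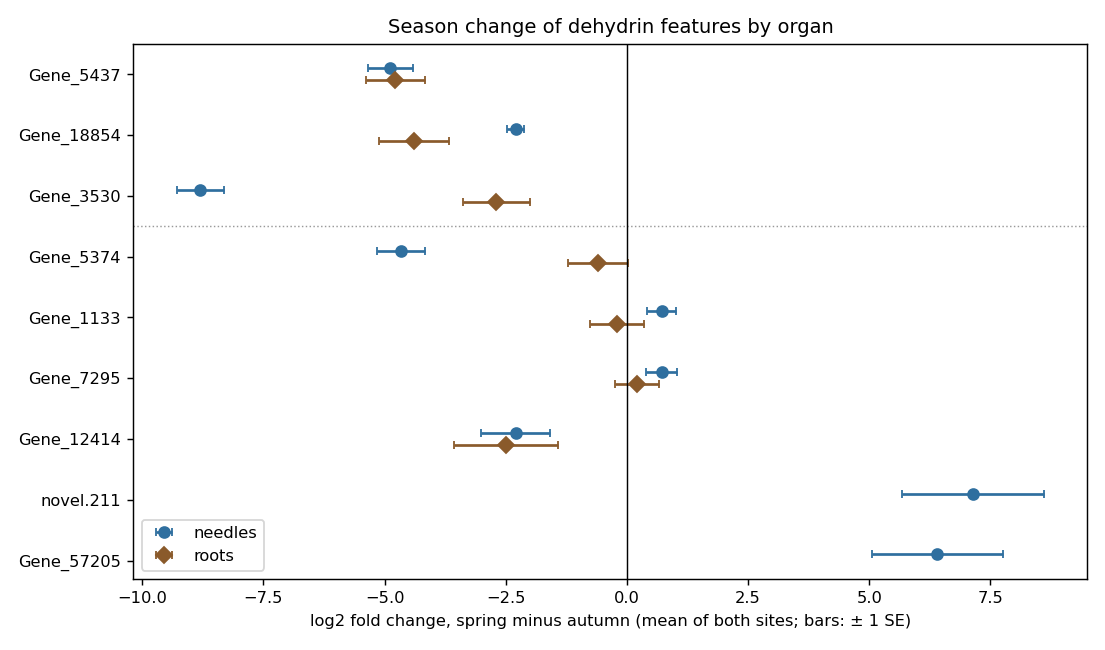
Log2 fold change between seasons (spring minus autumn) of the dehydrin features in needles (blue circles) and roots (brown diamonds), with bars of 1 SE; the members stand on one side of the dotted line and the other dehydrins on the other. The members range from -8.80 to -2.29, Gene_5374 sits at -4.66 in needles and -0.60 in roots, and Gene_1133 and Gene_7295 lie above 0 in needles. The row just above Gene_57205 is the dehydrin feature on ap_1269, and the fitted value of Gene_57205, which has no autumn read, depends on the prior count and is no bound.

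Other dehydrins differed in direction. Of the 7 other dehydrin features, 6 were tested for season in needles, where 2 rose, 1 fell and the median log2 fold change was 0.72, against 0.03 over all features; with the tree as a block none rose, and 1 or 2 rose without 1 library at a time. In roots 4 were tested and none passed by edgeR (1 at an unadjusted p under 0.05, 0 by DESeq2), and the median was -0.40, against 0.03. Gene_5374 (ap_4128, bases 1 to 1316) fell from 5307 ± 2661 CPM in autumn needles (n = 6) to 255 ± 155 CPM in spring needles (n = 5; log2 -4.66 ± 0.50, adjusted p = 0.000616 by edgeR). In roots Gene_5374 had 1059 ± 690 and 700.2 ± 397 CPM (-0.60 ± 0.61, edgeR adjusted p = 0.615). Gene_5374 was lower in spring in 5 of 5 trees in each organ, by 9.25-fold to 53.4-fold in needles and by 1.03-fold to 4.40-fold in roots. Gene_1133 and Gene_7295 were at 49.7 ± 15.4 and 51.1 ± 23.6 CPM in autumn needles and 79.2 ± 27.3 and 81.6 ± 33.9 CPM in spring needles, with edgeR adjusted p = 0.135 and 0.165 (0.0303 and 0.0293 with the tree as a block and without the needles of tree 1). Gene_12414 had log2 fold changes of -2.29 ± 0.71 in needles (edgeR adjusted p = 0.0600; 0.00718 by DESeq2, 0.0975 with the block, 0.730 as labelled, and 0.0449 to 0.212 without 1 library at a time) and -2.50 in roots (edgeR adjusted p = 0.205).

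Against the members, the dehydrin feature on ap_1269 (bases 1 to 932) was a spring needle transcript. It rose from 0.342 ± 0.294 CPM in autumn needles to 48.7 ± 52.1 CPM in spring needles (log2 7.14 ± 1.47, edgeR adjusted p = 0.0123; 0.165 with the tree as a block, 0.00221 with that block and without the needles of tree 1). It had 15.3 to 132 CPM in 4 spring needle libraries, no read in the spring needles of tree 1 and none in the 11 root libraries. The set-aside library labelled roots had 130.4 CPM of it and the one labelled needles had 0. Gene_57205 had no read in autumn needles and 0.969 ± 0.761 CPM in spring needles (edgeR adjusted p = 0.0342), a call lost with the tree as a block (adjusted p = 0.181) and without any 1 of 8 of the 11 needle libraries, and Gene_16868 had no read in any library.

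Dehydrins together held 0.400 to 1.34% of all reads in autumn needles and 0.0352 to 0.0822% in spring needles, and 0.141 to 2.07% and 0.0764 to 0.210% in autumn and spring roots. These are shares of reads, not corrected for length. Of the dehydrin reads, Gene_5437 held 67.9 ± 8.94% in autumn roots (n = 6) and 23.5 ± 16.5% in spring roots (n = 5), and 23.7 ± 5.97% and 12.8 ± 6.01% in needles. Gene_5374 held 64.1 ± 11.4% in autumn needles and 36.5 ± 14.5% in spring needles, and 15.8 ± 10.6% and 51.2 ± 20.6% in roots. The autumn dehydrin reads thus came mostly from Gene_5374 in needles and from Gene_5437 in roots.

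**Figure D3:**
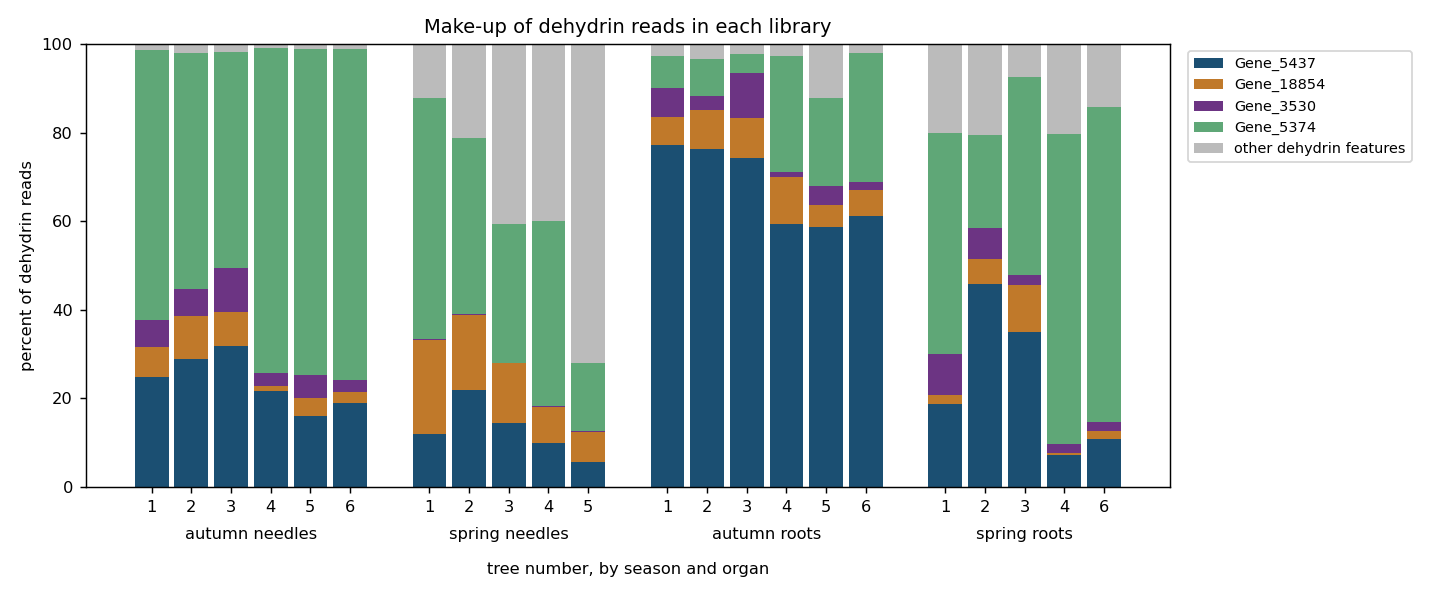
Percent of all dehydrin reads taken by each member, by Gene_5374 and by the other dehydrin features together in each of the 22 libraries. The stacked bars are ordered by organ, season and tree number. Gene_5437 takes 58.8 to 77.2% in autumn roots and Gene_5374 48.7 to 74.7% in autumn needles.

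On the RPKM scale, which also divides by feature length, Gene_5437 exceeded Gene_18854 in all 6 autumn needle libraries, with a median ratio of 4.05, and in 3 of 5 spring needle libraries, with a median of 1.05. In roots the median ratio was 9.61 in autumn and 8.09 in spring, above 1 in every library. Gene_5437 over Gene_3530 had a median RPKM ratio of 6.09 in autumn needles and 150.3 in spring needles, and 26.8 and 7.55 in roots. Gene_18854 over Gene_3530 had a median RPKM ratio of 1.15 in autumn needles (range 0.554 to 2.23) and of 117 in spring needles (range 39.6 to 525.6), and of 2.78 and 1.13 in autumn and spring roots. Gene_5437 over Gene_5374 had a median RPKM ratio of 0.679 in autumn needles and 0.716 in spring needles, but 11.7 in autumn roots and 0.730 in spring roots.

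Organ was compared within each season as needles minus roots. Gene_5437 was lower in needles in autumn (log2 -1.59 ± 0.44, edgeR adjusted p = 0.00961), where 32.3% of 21600 features passed and 13.4% were lower in needles. It was lower in needles in spring too (log2 -1.65 ± 0.49, edgeR adjusted p = 0.0182), where 28.2% passed and 8.94% were lower. The organ ranges of Gene_5437 overlapped in both seasons. The spring call was lost with all 24 libraries as labelled (-1.32, edgeR adjusted p = 0.0838), with the tree as a block and the needles of tree 1 left out (-1.10, edgeR adjusted p = 0.0875), without the spring needles of tree 5 (edgeR adjusted p = 0.0967) and without the spring roots of tree 4 (edgeR adjusted p = 0.0617).

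Gene_3530 did not pass in autumn (log2 0.34 ± 0.50, edgeR adjusted p = 0.670) and was far lower in needles in spring (-5.72 ± 0.73, edgeR adjusted p = 1.25e-05). All 5 spring needle libraries were below all 5 spring root libraries, a separation found in 7.05% of features. With the 24 libraries as labelled the difference was -3.00 and did not pass (edgeR adjusted p = 0.0835). Gene_18854 passed in neither season, with a log2 difference of -0.99 ± 0.44 in autumn (edgeR adjusted p = 0.0966) and 1.16 ± 0.50 in spring (adjusted p = 0.0940). With the tree as a block the spring difference passed (1.54, edgeR adjusted p = 0.0425). It also passed in autumn without the autumn roots of tree 2 or of tree 5 (edgeR adjusted p = 0.0492 and 0.0170), and in spring without the autumn roots of tree 5 or the spring roots of tree 3 (0.0411 and 0.0149). The median over all features was 0.18 in autumn and 0.11 in spring, so that the autumn value of Gene_3530 was 0.34 against 0.18. These comparisons share their libraries with the season comparisons. The autumn and spring levels that chose the members also enter them, so the members' p-values for organ are descriptions.

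Site was compared within each organ and season as Ronda minus Yunquera, the upper edge against the lower. All 12 fitted site values of the 3 members were below 0 in the 22 libraries, and the group means were lower at Ronda in all 12; a mean lower at Ronda in all 4 comparisons was found for 14.8% of features. Only Gene_18854 in autumn needles passed the test, at 590.3 ± 91.2 CPM at Yunquera and 180.3 ± 17.8 CPM at Ronda (SD, n = 3; log2 -1.68 ± 0.22, edgeR adjusted p = 0.0137). In that comparison 1.71% of features passed and 0.608% were lower at Ronda, and groups that did not overlap, with Ronda lower, made up 13.2%. The call was lost with the 24 libraries as labelled (edgeR adjusted p = 0.0519), with tree as a random effect in limma (adjusted p = 0.296) and without the autumn needles of tree 3 (edgeR adjusted p = 0.0557). Gene_5437 and Gene_3530 in autumn needles had values of -0.25 ± 0.48 (edgeR adjusted p = 0.807) and -0.92 ± 0.41 (adjusted p = 0.258), with ranges that overlapped. Without the autumn needles of tree 5 the value of Gene_5437 was 0.12.

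In spring needles Gene_18854 had 140.4 ± 42.7 CPM at Yunquera (n = 3) and 32.0 ± 6.68 CPM at Ronda (n = 2), and Gene_5437 had 127 ± 31.2 and 34.1 ± 15.7 CPM. Neither pair of groups overlapped, as for 12.3% of features, but neither passed by edgeR (Gene_18854 log2 -2.12 ± 0.27, adjusted p = 0.0726; Gene_5437 -1.90 ± 0.58, adjusted p = 0.321). DESeq2 called both, with adjusted p = 1.41e-10 and 0.0224, and edgeR called Gene_18854 without the spring needles of tree 3 (adjusted p = 0.0485). No feature passed by edgeR in this comparison (0%), while 2153 had an unadjusted p under 0.05 and DESeq2 called 564. Gene_3530 had -0.08 ± 0.58 (edgeR adjusted p = 0.977) at levels near 1 CPM; it was 4.77 with the 24 libraries as labelled, 0.03 with tree as a random effect, 0.46 without the spring needles of tree 2 and 0.04 without those of tree 4.

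The root site values were larger but more variable. In autumn roots Gene_3530 had 1101 ± 828.7 CPM at Yunquera and 83.0 ± 46.4 CPM at Ronda with no overlap (log2 -3.74 ± 0.92, edgeR adjusted p = 0.216), as 7.62% of features had in that direction. It passed with tree as a random effect in limma (-3.33, adjusted p = 0.0370) and by DESeq2 (-3.73, adjusted p = 0.00111). Gene_5437 and Gene_18854 had -2.08 ± 0.67 (edgeR adjusted p = 0.302) and -1.78 ± 0.81 (adjusted p = 0.437), with ranges that overlapped; 0.0324% of features passed here. In spring roots all 3 members were lower in both Ronda libraries than in any of Yunquera, as 8.53% of features were, with log2 values of -2.17 ± 0.79, -3.01 ± 1.00 and -1.88 ± 0.99 for Gene_5437, Gene_18854 and Gene_3530. Their edgeR adjusted p was 1 each, and no feature passed (0%; 564 at an unadjusted p under 0.05, 89 by DESeq2).

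**Figure D4:**
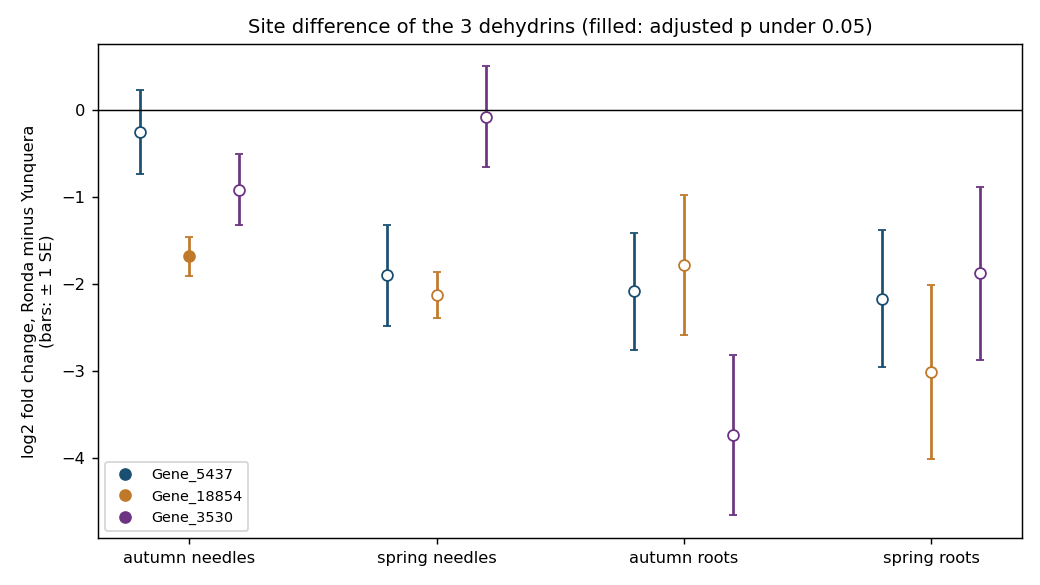
Log2 difference between sites (Ronda minus Yunquera) of the 3 members in each organ and season, with bars of 1 SE; a filled symbol has an edgeR adjusted p under 0.05. All 12 points, fitted in the 22 libraries, lie below 0, from -3.74 to -0.08 (4.77 for Gene_3530 in spring needles with all 24 libraries as labelled), and Gene_18854 in autumn needles is the filled one.

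The members' share of the dehydrin reads also differed by site; this measure was chosen after its values had been seen. In autumn needles it was 44.0 ± 5.86% at Yunquera and 25.1 ± 0.886% at Ronda, and in autumn roots 90.5 ± 2.67% and 69.4 ± 1.61% (SD, n = 3; 2-sided exact permutation p = 0.1 each, the smallest that 3 against 3 can give). In spring the shares were 33.5 ± 5.49% and 15.4 ± 3.92% in needles and 45.5 ± 14.3% and 12.2 ± 3.42% in roots (n = 3 and 2; exact permutation p = 0.2 each, the smallest that 3 against 2 can give), so that no comparison of shares could reach 0.05. The sites did not overlap in any of the 4 comparisons, and a like share over all features was not computed. The share also depends on the other dehydrins. In autumn needles Gene_5374 had 4176 ± 1715 CPM at Yunquera and 6438 ± 3304 CPM at Ronda. Its autumn roots had 917 ± 556 and 1201 ± 906 CPM in the same order. In spring it had 341 ± 128 and 126 ± 90.5 CPM in needles. Spring roots had 619 ± 407 and 822 ± 501 CPM.

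The season change was not shown to differ between sites for any member. Its difference (Ronda minus Yunquera) in needles was -1.64 ± 0.74 for Gene_5437, -0.44 ± 0.33 for Gene_18854 and 0.84 ± 0.71 for Gene_3530 (log2, edgeR adjusted p = 0.757, 0.901 and 0.923). In roots it was -0.09 ± 0.97, -1.23 ± 1.196 and 1.86 ± 1.24 in the same order, with edgeR adjusted p-values of 1. No feature passed in needles (0%; 1369 at an unadjusted p under 0.05, 189 by DESeq2) or in roots (0%; 744 and 72).

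The members' levels were compared with each other across libraries. Over the 22 libraries Pearson's r of log2(CPM + 1) was 0.85 between Gene_5437 and Gene_18854 (0.85 in needles, 0.97 in roots; n = 11 each), 0.88 between Gene_5437 and Gene_3530 (0.95 and 0.84) and 0.61 between Gene_18854 and Gene_3530 (0.76 and 0.77). After the group means were taken out, r was 0.11 in needles and 0.85 in roots for Gene_5437 with Gene_18854, 0.67 and 0.58 for Gene_5437 with Gene_3530, and -0.09 and 0.19 for Gene_18854 with Gene_3530. The libraries share season and site, so these values are descriptions.

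The 5 features most alike to each member were taken from 11805 features with a mean of at least 5 CPM, by Pearson's r over the 22 libraries. Gene_3786, with a plant PEC metallothionein domain (a small cysteine-rich, metal-binding protein), was among them for Gene_5437 (r = 0.94) and Gene_18854 (r = 0.92). Its mean level was 267 CPM in autumn needles and 12.02 CPM in spring needles, and 338 and 14.96 CPM in roots. For Gene_5437 the others were features with no annotation on ap_52961 (bases 1 to 1093; r = 0.93) and ap_71317 (bases 31 to 1948; r = 0.93), the LEA protein LEA14-A (Gene_4579; r = 0.92) and actin-66 (Gene_7083; r = 0.92), a cytoskeletal protein. For Gene_18854 they were Gene_39955 (no annotation; r = 0.93), the FHA-domain protein FHA2 (Gene_8072; r = 0.91), the ap_71317 feature (r = 0.91) and CEN-like protein 1 (ap_13976, bases 2 to 1203; r = 0.91), of the CENTRORADIALIS/TFL1 family that in other plants holds back flowering. For Gene_3530 they were Gene_5361 (r = 0.95), Gene_15866 (r = 0.94), Gene_3445 (r = 0.93) and the ap_10152 feature (bases 3 to 909; r = 0.92), none with an annotation, and the RNA-binding protein RBP45 (ap_9402, bases 68 to 3369; r = 0.92). Gene_5361 had mean levels of 500.5 CPM in autumn needles and 4.39 CPM in spring needles, and 1399 and 150.2 CPM in roots. Other features of these lists fell far less. Actin-66 had 353.1 and 184.9 CPM in autumn and spring needles, and 437.2 and 258.4 CPM in roots. FHA2 had 96.41 and 62.81 CPM in needles, and 111.9 and 56.17 CPM in roots. The 22 libraries span both seasons, and season chose the members, so r also carries that contrast. A high r need not mean a fall as large as that of the members.

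Other LEA proteins, of the same broad class, moved in both directions. Of 17 tested in needles, 6 rose in spring and 2 fell (median log2 fold change 0.62); with the tree as a block 3 rose and 2 fell, and as labelled 4 rose and 2 fell. In roots none of 15 rose by edgeR (2 at an unadjusted p under 0.05, 1 by DESeq2) and 2 fell (median 0.28; none fell with the block, 1 with the 24 libraries as labelled and 0 to 2 without 1 library at a time). LEA14-A (Gene_4579) fell from 642 ± 432 to 17.3 ± 13.01 CPM in needles (log2 -5.17 ± 0.63, edgeR adjusted p = 0.00116) and from 1537 ± 1679 to 97.2 ± 94.9 CPM in roots (-3.50 ± 0.82, adjusted p = 0.0378). The root call was lost with the block (edgeR adjusted p = 0.0837) and without any 1 of 7 of the 11 root libraries. The homologue of the Arabidopsis LEA protein At5g17165 (Gene_3984) rose in needles (1.53 ± 0.38, edgeR adjusted p = 0.0271) and fell in roots (-1.74 ± 0.42, adjusted p = 0.0407), but neither call held with the block (edgeR adjusted p = 0.0962 and 0.0727) or with the 24 libraries as labelled (0.0872 and 0.0541), and leaving out 1 library ended them in 7 and 10 of 11 cases. A second homologue of that protein (Gene_4052) and a desiccation-related LEA protein (Gene_7246) rose in needles by 3.06 ± 0.62 and 0.80 ± 0.12 (edgeR adjusted p = 0.0116 and 0.00351; 0.117 and 0.0320 with the block). The other abundant features of the list, Gene_9654 and Gene_6127, had needle values of 0.76 ± 0.43 and 0.19 ± 0.54 (edgeR adjusted p = 0.278 and 0.871). Gene_9654 was matched by its LEA domain, and its best hit is NDR1/HIN1-like protein 26. Matches to other proteins were not counted on this list.

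Among the factors known upstream of dehydrins in Arabidopsis, the CBF/DREB and ICE list had 12 features tested in needles, of which 2 rose and 2 fell (median -0.13; 1 and 2 with the block, 3 and 3 by DESeq2, 2 to 4 higher without 1 library at a time). In roots 9 were tested and none passed by edgeR (2 higher and 2 lower with an unadjusted p under 0.05, and 1 of each direction by DESeq2; median -0.47). DREB2A (Gene_75725), an AP2 factor of drought and heat responses, fell from 28.4 ± 6.78 CPM in autumn needles to 4.57 ± 0.776 CPM in spring needles (-2.61 ± 0.19, edgeR adjusted p = 0.000117). ICE1 (ap_20634, bases 1 to 2482) and SCREAM2 (Gene_14661), basic helix-loop-helix factors that act ahead of CBF genes in Arabidopsis, rose in spring needles by 1.46 ± 0.20 and 3.09 ± 0.48 (edgeR adjusted p = 0.00237 and 0.00386; 0.0336 and 0.0517 with the block). A second feature with SCREAM2 as best hit (Gene_43901) did not pass, at 4.86 ± 2.40 CPM in autumn needles and 4.64 ± 3.26 CPM in spring needles (-0.25 ± 0.51, edgeR adjusted p = 0.803). A DREB2H homologue on ap_9111 (bases 116 to 1271) had -0.49 ± 0.53 (edgeR adjusted p = 0.595). Of the 22 features on this list, 7 were matched by text but are other proteins, such as a splicing factor.

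ABA core signalling had 19 features tested in needles, of which 1 rose and 1 fell (median 0.01; 0 and 1 with the block). In roots 18 were tested, of which none rose by edgeR (7 at an unadjusted p under 0.05, 3 by DESeq2) and 2 fell (median 0.60; 1 and 1 with the block, 1 to 3 lower without 1 library at a time). The ABI5-like bZIP factors, which bind ABA-response elements, split in needles: ABI5-like protein 3 (Gene_10139) fell from 87.4 ± 14.5 to 40.3 ± 5.03 CPM (-1.12 ± 0.15, edgeR adjusted p = 0.00225), and ABI5-like protein 5 (Gene_7354) rose from 161 ± 12.7 to 282 ± 89.4 CPM (0.71 ± 0.13, adjusted p = 0.00763; 0.0506 with the block). SAPK10 (Gene_6876), a kinase of the SnRK2 family that carries the ABA signal, fell in roots from 413 ± 107 to 69.8 ± 28.7 CPM (-2.58 ± 0.33, edgeR adjusted p = 0.00465). Over all features 8.79% rose and 6.49% fell in needles. The ABA receptor PYL8 (Gene_4677) had -0.38 ± 0.15 in needles and -0.01 ± 0.24 in roots (edgeR adjusted p = 0.124 and 0.991). Another SnRK2 kinase, SRK2A (Gene_3905), had 0.01 ± 0.12 and 0.71 ± 0.26 (edgeR adjusted p = 0.982 and 0.143). A protein that binds ABF2 (Gene_11898) had -0.05 ± 0.10 and -0.65 ± 0.22 (edgeR adjusted p = 0.787 and 0.122). On this list 6 of 35 features were text matches to other proteins.

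Sugars of the raffinose family are known to protect drying and cold tissue alongside dehydrins. Of 15 features matched by text to their synthesis enzymes and tested in needles, 5 rose and 2 fell (median 0.47). With the block 3 rose and 0 fell, and as labelled 5 rose and 1 fell. Without 1 library at a time 4 to 7 rose and 0 to 2 fell. Of 15 in roots none rose by edgeR (2 at an unadjusted p under 0.05, 1 by DESeq2) and 5 fell (median -2.50). With the block 2 fell, with the 24 libraries as labelled 1, and without 1 library at a time 2 to 5. The most abundant, 2 galactinol synthase 1 features, had needle values of 1.007 ± 0.852 (Gene_3136, edgeR adjusted p = 0.485) and 0.47 ± 0.19 (Gene_3454, adjusted p = 0.125), which passed with the block (0.0377 and 0.0492). In roots they had -6.47 ± 2.05 and -4.84 ± 1.23 (edgeR adjusted p = 0.0976 and 0.0498). The root call of Gene_3454 was lost with the block (0.0952) and in 10 of 11 runs without 1 library. A galactosyltransferase on ap_60466 rose in needles by 1.80 ± 0.21 (edgeR adjusted p = 0.000944). Another galactinol synthase 1, on ap_34676, had 3.39 ± 0.56 in needles (edgeR adjusted p = 0.00496, but 0.0635 with the block). In roots it had -6.44 ± 0.50 (0.000676, but 0.0510 as labelled). Galactinol synthase 2 (Gene_10499), the first step of the pathway, rose from 25.5 ± 29.4 to 158 ± 122 CPM in needles (3.82 ± 0.61, edgeR adjusted p = 0.00433; 0.0552 with the block) and fell from 101 ± 117 to 0.594 ± 0.221 CPM in roots (-6.64 ± 0.54, edgeR adjusted p = 0.000676; 0.122 with the 24 libraries as labelled). Gene_8014 has a probable galactinol-sucrose galactosyltransferase 2 as best hit, and its domain is named raffinose synthase or seed imbibition protein. It fell in roots by 2.99 on the log2 scale (edgeR adjusted p = 0.0298). The call was lost with the block (edgeR adjusted p = 0.0863) and as labelled (edgeR adjusted p = 0.0558). Leaving out 1 library ended it in 5 of 11 cases. Early light-induced proteins, chloroplast proteins of light and cold stress, had no call by edgeR among 15 tested in needles (median 0.56; 2 higher and 1 lower with an unadjusted p under 0.05, and 1 of each direction by DESeq2). Without the spring needles of tree 1, 4 rose and none fell by edgeR; 2 rose without both needle libraries of tree 1, and 6 rose and 1 fell when the tree was also a block. In roots 2 of 5 tested fell (median -5.58; 1 with the block, 0 to 2 without 1 library at a time; with the 24 libraries as labelled none fell and the median was 0.34). That root median of -5.58 was the value of Gene_8363, with 0.500 ± 0.637 CPM in autumn roots and 0 in spring roots, so its size depends on the prior count. Gene_2963 fell from only 3.76 ± 3.69 to 0.153 ± 0.210 CPM. The list feature with the highest root levels, Gene_228, had 417 ± 70.4 and 611 ± 72.8 CPM (0.51 ± 0.17, edgeR adjusted p = 0.113). Its domain is a glycosyl transferase of family 90. The list members were read against the background shares given for season above, and no list was tested as a set.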

How the data were processed

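The count table, as deposited by the authors, gives raw read counts of 51046 features in 24 libraries, per the labels. The submitters' processing notes name CASAVA, HISAT2 and featureCounts; software versions, parameters and the reference build: not given in the sources used here. Members, lists and set-aside libraries were chosen with earlier results of these data known. Counts of the 22 remaining libraries were fitted with edgeR 4.0.16 in R 4.3.3: TMM factors, filterByExpr (count minimum 10, total minimum 15), quasi-likelihood tests on group means within an organ (over both organs for organ), Benjamini-Hochberg adjustment over all features tested and a threshold of 0.05. The scripts were tested on simulated counts. DESeq2 1.42.0, limma 3.58.1 with tree as a random effect (consensus correlation 0.064), other normalization, no filter, a replicate block and left-out libraries were alternatives. The block without the needles of tree 1 was added after the data were seen. Named genes were the members, the 5 features most alike to each, and from up to 6 features per list (10 for dehydrins) with the highest mean CPM those whose values the text gives. Gene names are best hits in other species.

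The labels give 6 independent trees with numbered biological replicates, and the series' design text speaks of more trees per harvest. The number was taken as the tree. P-values of the main fits measure the spread between numbered trees within groups. These fits hold no tree term, so for season and organ they treat libraries of the same tree as independent. Only the alternatives with the tree as a block or a random effect use it. Deviations of same-numbered libraries from their group means correlated at 0.165 to 0.359 between seasons in roots. In needles the correlation was -0.315 for tree 1 and 0.244 to 0.544 for the others. Between organs it was 0.078 to 0.250 in autumn and -0.052 to 0.228 in spring. Replicates of a group differed by more than sampling noise. Sequences were not used here.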

Additional observations from a re-analysis of the deposited data

Results flagged for a closer look

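Each member was examined in the groups of 5 or 6 libraries of an organ and season, 12 groups in all, for a library far from the others by Dixon's criterion. Chance flags about 1 in 20 groups when the values come from 1 normal distribution. These groups pool 2 sites on the CPM scale, so that rate need not hold here. Flags were found in 2 groups, both for a spring root library of Yunquera. For Gene_18854 it was tree 3 with 170.5 CPM, and for Gene_3530 tree 1 with 182 CPM. The 2 trees differ, and each was unremarkable for the other feature.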

How the results depend on the processing

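Each result was recomputed with 1 choice changed at a time, except in 2 alternatives. The replicate block for site is limma with tree as a random effect over both organs (21600 features tested), so that test, feature set and block changed together. The replicate block without the needles of tree 1 changed model and libraries together. Of the site, season by site and organ values of the members, 132 kept direction and call outside the runs that left out 1 library. The called ones that missed the threshold were Gene_18854 for site in autumn needles (log2 -1.72 with the 24 libraries as labelled, -1.68 with the replicate block), Gene_5437 for organ in spring (-1.32 as labelled; -1.10 with the replicate block without the needles of tree 1) and Gene_3530 for organ in spring (-3.00 as labelled). Those that came to pass were, by DESeq2, Gene_5437 and Gene_18854 for site in spring needles (-1.90 and -2.13) and Gene_3530 for site in autumn roots (-3.73), and, with the replicate block, Gene_3530 for site in autumn roots (-3.33) and Gene_18854 for organ in spring (1.54). Gene_3530 for site in spring needles turned to 4.77 as labelled and 0.026 with the block. Season values moved for Gene_3530 in needles as labelled (-6.36; -3.50 at Ronda).

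Counts of features called also moved. For season in needles, 3142 became 1312 with the block, and in roots 1027 became 2769 by DESeq2 and 631 with the block. For site in autumn needles, 352 became 36 as labelled, 2100 by DESeq2 and 112 in that limma fit. For site in spring needles, 0 became 5 without the needles of tree 1, 564 by DESeq2 and 56 in the limma fit. In autumn roots 6 became 697 by DESeq2 and 334 in the limma fit, and in spring roots 0 became 89 and 10. Season by site gave 189 by DESeq2 and 11 with the block without the needles of tree 1 in needles, and 72 by DESeq2 in roots. Organ in spring gave 2002 as labelled in place of 6094.

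Without 1 library at a time, Gene_5437 and Gene_18854 for site in autumn needles ranged from -0.89 to 0.12 and from -1.80 to -1.55, Gene_18854 and Gene_3530 for site in spring needles from -2.36 to -1.88 and from -0.39 to 0.46, and Gene_5437 for season by site in roots from -0.55 to 0.43. For organ, Gene_18854 ranged from -1.23 to -0.76 in autumn and from 0.98 to 1.66 in spring, and Gene_5437 from -1.94 to -1.45 in spring. Called features ranged from 1631 to 3519 and from 358 to 1025 for season in needles and roots, from 28 to 650 and from 0 to 14 for site in autumn and spring needles, from 0 to 5 and from 0 to 6 for site in autumn and spring roots, and from 0 to 2 for season by site in each organ. The cause of these shifts was not tested.

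Gene_3530 in spring needles rests on 9 to 31 reads per library. The block changed no call of a member beyond those given.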
